A study of Mus musculus with 6 samples.

Results

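Surface Lamp1 was used to divide the viable cells of sham-treated mouse lung into a Lamp1-enriched and a Lamp1-depleted fraction, and the RNA of each fraction was sequenced as 1 library. The comparison described here is the enriched library over the depleted library, gene by gene. Of the 49315 genes in the count table, 21867 had at least 10 reads in either library and are the genes counted below; 27448 had fewer in both. Among the counted genes, 13511 (61.8%) had at least 50 reads in both libraries and are called well counted. A further 816 genes (3.73%) had 3 reads or fewer in the depleted library and 807 (3.69%) had 3 reads or fewer in the enriched library. These genes at the floor of 3 reads are kept apart, and 6733 genes lay between the floor and the well-counted set.

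The mice were C57BL/6J males that received sterile saline by the oropharyngeal route and served as the controls of a bleomycin (BLM) fibrosis experiment, with lungs taken at the end of the third week. Lungs of several animals of a group were digested and pooled, and cells were gated on viability and on Lamp1 protein at the surface, with no gate for any lineage. The age of these mice and the total number of animals behind each library are not given in the sources used here. With 1 pooled library a condition no difference between the fractions can be tested against variation between animals. An unsorted sham library and the matching 3 libraries of BLM-treated lung complete the 6 libraries of the study. Library totals were 45090413 reads for the sham Lamp1-enriched, 39609874 for the sham Lamp1-depleted and 40742095 for the sham unsorted library, within a range of 30236120 to 52918696 over all 6. Levels are given as CPM, reads scaled to a common library size after TMM, a method that sets libraries to a common level through the bulk of their genes. Ratios are log2 of the enriched over the depleted level, so that a value of 2 is 4-fold, and the bracketed 95% intervals cover counting error between these libraries only.

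Lamp1 is a heavily glycosylated protein of the lysosomal membrane that reaches the cell surface when lysosomes fuse with the plasma membrane, an event best known in degranulating lymphocytes and in activated platelets. The study used the surface protein as a marker of senescent cells. A digest of whole lung holds endothelial cells of capillaries and larger vessels, epithelial cells of alveoli and airways, fibroblasts, mural cells, macrophages and lymphocytes, each with marker genes that few of the others transcribe. In such bulk RNA, more cells of a type and more RNA per cell cannot be told apart.

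The Lamp1 transcript itself was higher in the fraction sorted for its protein. Its level was 491 CPM in the enriched, 146 CPM in the depleted and 319 CPM in the unsorted library, with the unsorted library between the fractions. The log2 ratio was 1.75 (1.71 to 1.79), or 3.36-fold, from 22587 and 6664 reads. Lamp1 is on mouse chromosome 8, and its promoter is shown because the gene is the one the sort was built on. The RefSeq window on build GRCm38.p6, from 250 bases before the transcription start to 50 bases after it (chr8:13158911-13159210, plus strand), is printed 5′ to 3′. Capitals mark every match, on either strand, to any of 4 motifs. The E-box was searched as CACGTG. The core bound by ETS factors was searched as AGGAAG. The RUNX motif was searched as AACCACA. The GATA motif was searched as GATAAG.
Lamp1: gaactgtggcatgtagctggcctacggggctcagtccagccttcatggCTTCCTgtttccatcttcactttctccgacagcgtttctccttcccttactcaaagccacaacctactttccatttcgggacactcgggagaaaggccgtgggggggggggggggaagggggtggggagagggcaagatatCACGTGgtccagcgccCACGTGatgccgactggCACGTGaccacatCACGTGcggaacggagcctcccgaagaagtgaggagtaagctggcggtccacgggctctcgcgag
The window held 4 copies of the E-box, whose letters stand at the centre of the element that TFEB and its relatives recognise in lysosomal genes, and 1 ETS core. Of the 27025 genes with a promoter in the RefSeq table, 7.24% held the E-box, 35.1% the ETS core, 5.37% the RUNX motif and 7.43% the GATA motif in the first window listed for them. A longer form of the E-box with 2 more bases, GTCACGTG, stood in 2.33%. A match is a description of the letters and not a bound site. Promoters were found for 72.3% of the well-counted genes at least 4-fold higher in the enriched library and 61.1% of those at least 4-fold lower, short of the 80% needed for a comparison of motif shares between these sets, which is therefore void and not given.

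The fractions differed over a large part of the transcriptome. Of the 21867 genes counted, 3403 (15.6%) were at least 4-fold higher and 2763 (12.6%) at least 4-fold lower in the enriched library. Counts of list members at least 4-fold apart, given below, are to be read beside these shares. Among the 13511 well-counted genes the counts were 1570 (11.6%) higher and 931 (6.89%) lower, whereas 8063 (59.7%) lay within 2-fold. The median log2 ratio was -0.01 in both sets, and the 5th and 95th percentiles of the well-counted genes were -2.38 and 2.83. At a stricter 16-fold, 22 well-counted genes were higher and 114 lower, so that the lower tail was longer although fewer genes passed 4-fold on that side. The well-counted genes at least 4-fold higher held 30.3% of all reads in the enriched, 4.61% in the depleted and 23.8% in the unsorted library, and those at least 4-fold lower held 1.44%, 13.7% and 2.84%. In these read shares the unsorted library thus lay nearer the enriched fraction on both sides. Its level was above both fractions for 251 of the 1570 higher genes and below both for 58 of the 931 lower ones. By flow cytometry the study found surface Lamp1 on a small share of lung cells in young and middle-aged mice. Why the unsorted library lay nearer the enriched one was not tested.

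**Figure D1:**
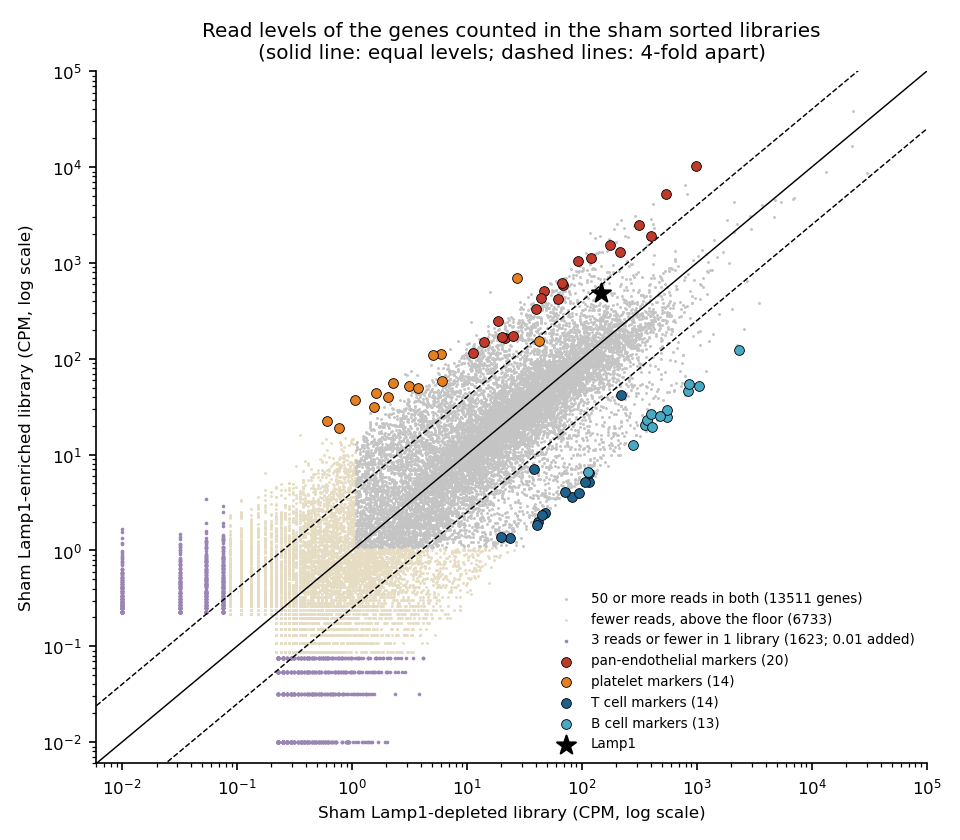
Level of each of the 21867 genes counted in the sham Lamp1-depleted library (x axis, CPM, log scale) and the sham Lamp1-enriched library (y axis, CPM, log scale), with the solid line at equal levels and dashed lines 4-fold apart. The 20 pan-endothelial markers (red) all lie above the upper dashed line, the 14 T cell (dark blue) and 13 B cell (light blue) markers all below the lower one, and Lamp1 (star) lies just under the upper line at 1.75.

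Endothelial markers lay on the enriched side. All 20 pan-endothelial markers were at least 4-fold higher, with log2 ratios from 2.25 to 3.72 and a median of 3.16, and 17 of the 20 lay within 0.5 of that median. Their summed level was 28808 CPM in the enriched, 3296 CPM in the depleted and 16623 CPM in the unsorted library. Pecam1, the endothelial adhesion molecule, had 1908 CPM in the enriched, 400 CPM in the depleted and 1123 CPM in the unsorted library, the smallest ratio of the list at 2.25 (2.23 to 2.28). Cdh5, which encodes VE-cadherin of endothelial junctions, had 2483, 317 and 1395 CPM in the same order, a log2 ratio of 2.97. Erg, an ETS-family transcription factor of endothelium, had the largest ratio at 3.72 (3.62 to 3.82), from 246 against 18.6 CPM. For all 3 genes the unsorted level fell between the fractions. Calcrl, a receptor component for adrenomedullin, and Epas1, a hypoxia-inducible transcription factor, had the highest levels of any gene at least 4-fold higher, both by CPM and per kilobase of exon. Calcrl had 10293 CPM against 993 CPM, and Epas1 10101 CPM against 941 CPM, which are ratios of 3.37 (3.36 to 3.39) and 3.42 (3.41 to 3.44). Per length they were followed by Hpgd, a prostaglandin-degrading enzyme, by the fatty acid transporter Cd36, by Selenop, Cav1, Aqp1, Ly6a, Ppbp and Thbd.

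Markers of each blood vessel segment lay mostly on the enriched side, with the highest median in the venous list, whereas lymphatic markers lay on both sides. The venous list had a median of 3.41 with 9 of 10 genes at least 4-fold higher, general capillaries 3.18 with 9 of 10, arteries 2.98 with 8 of 10 and aerocytes, the large capillary cells of gas exchange, 2.65 with 10 of 10. Among the venous genes Ackr1 was at the floor in the depleted library, and 8 of the 9 well counted were at least 4-fold higher. Slc6a2, the noradrenaline transporter, led all well-counted genes at 4.96 (4.85 to 5.07), from 496 CPM in the enriched, 15.9 CPM in the depleted and 106 CPM in the unsorted library. The venous genes Prss23 at 4.48, Vcam1 at 4.15 and Vwf, which encodes von Willebrand factor, at 4.13 were also among the 20 largest. Sele, the inducible E-selectin, was the one venous gene below zero at -0.72 (-0.98 to -0.47), at 4.52 and 7.46 CPM. Of 7 counted lymphatic markers 4 were at least 4-fold higher, with a median of 2.76. Lyve1 was at 3.48, Mmrn1 at 3.42, Pdpn at 3.07 and Flt4 at 2.76, while Prox1, the factor that defines lymphatic identity, was at 0.75 (0.15 to 1.38) from 63 and 37 reads and Reln was at -1.50. Thy1 of the same list was at -4.22 and is also a T cell antigen in mice. The order of neighbouring vessel lists was not tested, since each fraction is 1 library.

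The promoter of Tie1, an endothelial receptor tyrosine kinase at 3.09 in this comparison, and that of Gp9, a platelet gene described next, are shown as members of the lists on the enriched side, with the same marking and build. The windows are chr4:118489800-118490099, minus strand for Tie1 and chr6:87777820-87778119, plus strand for Gp9.
Tie1: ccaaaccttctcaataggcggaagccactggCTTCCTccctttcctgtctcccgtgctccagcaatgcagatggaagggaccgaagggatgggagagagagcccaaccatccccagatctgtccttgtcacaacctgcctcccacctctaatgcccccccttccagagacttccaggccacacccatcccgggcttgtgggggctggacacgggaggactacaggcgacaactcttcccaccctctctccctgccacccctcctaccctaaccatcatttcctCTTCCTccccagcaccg
Gp9: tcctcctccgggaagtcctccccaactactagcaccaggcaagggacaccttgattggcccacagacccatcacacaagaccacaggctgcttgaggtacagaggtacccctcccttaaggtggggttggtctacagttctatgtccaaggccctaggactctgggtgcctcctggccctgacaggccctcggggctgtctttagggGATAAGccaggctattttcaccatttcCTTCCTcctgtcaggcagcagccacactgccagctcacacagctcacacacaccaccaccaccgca
The Tie1 window held 2 ETS cores, and the Gp9 window 1 ETS core and 1 GATA match.

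Platelet transcripts had the largest ratios of any cell type list. Of 14 genes, 13 were at least 4-fold higher, with a median of 4.37, and Gp9, Ppbp, Gp6, Tubb1, Gp5 and Itga2b stood among the 20 largest ratios of all well-counted genes. Ppbp, the precursor of platelet chemokines, had 694 CPM in the enriched, 27.1 CPM in the depleted and 206 CPM in the unsorted library, a ratio of 4.68 (4.60 to 4.76). Gp9, a subunit of the von Willebrand receptor, had 43.6, 1.62 and 15 CPM and a ratio of 4.74 (4.41 to 5.10). The collagen receptor Gp6 at 4.60, the platelet tubulin Tubb1 at 4.42 and the integrin chain Itga2b at 4.25 followed. The median of the enriched over the unsorted library was 1.67 for the platelet list, against 0.78 for the pan-endothelial and 0.90 for the venous list. Itgb3, the partner of Itga2b that other cells also make, was the only platelet gene under 4-fold at 1.88. The summed level of the list was 1480 CPM in the enriched, 103 CPM in the depleted and 479 CPM in the unsorted library. Red cell transcripts did not share the pattern, since Hbb-bs was at 0.05 (-0.01 to 0.12) and none of 7 erythroid genes was 4-fold apart. Hba-a1 and Hba-a2, at -0.13 and -0.11, are near-identical copies whose reads cannot be assigned with certainty.

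**Figure D2:**
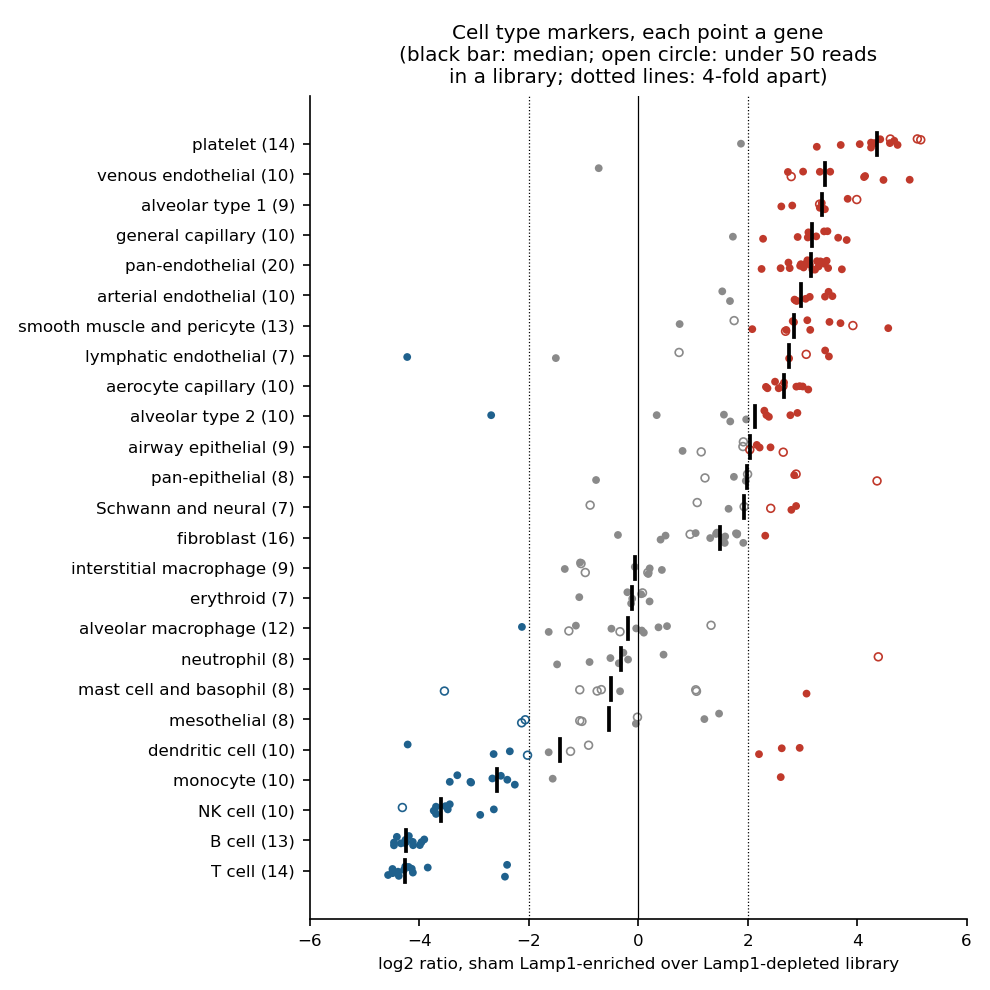
Log2 ratio of each counted marker gene (points; x axis, sham Lamp1-enriched over Lamp1-depleted library) for 25 cell type lists ordered by their median (black bars; counted genes in brackets), with red and blue for genes at least 4-fold apart. Medians run from 4.37 for platelet genes to -4.27 for T cell genes, and the B cell points form the tightest group, from -4.46 to -3.91.

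Epithelial and mesenchymal lists lay on the enriched side to differing degrees. Alveolar type 1 cells, the thin cells that line most of the alveolar surface, had 9 of 9 counted genes at least 4-fold higher and a median of 3.35. Ager had 43.5 CPM in the enriched, 4.08 CPM in the depleted and 46.8 CPM in the unsorted library, and Cldn18, an alveolar claudin, had a ratio of 3.83. Type 2 markers were lower at a median of 2.14 with 5 of 10 genes at least 4-fold higher. Sftpc, the surfactant protein, had 585, 85.2 and 779 CPM (2.78), with the unsorted library above both fractions. Lamp3, a lysosome-related membrane protein of type 2 cells, was at 1.97 (1.81 to 2.14), whereas the lipid transporter Abca3 was at 0.34 and the aspartic protease Napsa at -2.69 from 28.2 and 181 CPM. Airway genes had a median of 2.04 over 9 counted genes, of which 4 were well counted, and the club cell gene Scgb1a1 was at 2.17 (2.04 to 2.29). Epcam, the general epithelial adhesion molecule, was at -0.77 (-1.14 to -0.41) while Cdh1 was at 1.97, so that pan-epithelial genes did not move as one.

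Fibroblast genes were higher by less than 4-fold. Only Dpt of 16 reached it, at 2.32, and the median was 1.49. Col1a1 had 47.0 CPM in the enriched, 17.3 CPM in the depleted and 92.4 CPM in the unsorted library (1.44), Col3a1 was at 1.54 and the receptor Pdgfra at 1.59. The summed fibroblast level was 474, 154 and 936 CPM, so that both fractions held less than the unsorted library. Mural genes were further apart, with 11 of 13 smooth muscle and pericyte genes at least 4-fold higher and a median of 2.85. Rgs5, a pericyte regulator of G protein signalling, was among the 20 largest ratios at 4.57 (69.4 against 2.92 CPM), and Des, the muscle filament protein, was at 3.49. Tagln was at 0.76 from 101 and 59 reads. Mesothelial genes, with 3 of 8 well counted, had a median of -0.53 that became 0.58 when only genes with at least 50 reads in either library were kept, and the defining gene Msln had 14 reads in each fraction, at 0.304 and 0.307 CPM against 3.11 CPM unsorted.

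Lymphocyte transcripts lay at the opposite end. All 14 T cell, 13 B cell and 10 NK cell genes were at least 4-fold lower in the enriched library, with medians of -4.27, -4.24 and -3.61. The B cell ratios spanned -4.46 to -3.91, a spread across genes of 0.18 (SD) around the median. Cd79a, the signalling chain of the B cell receptor, had 24.9 CPM in the enriched, 548 CPM in the depleted and 27.5 CPM in the unsorted library, a ratio of -4.46 (-4.55 to -4.38). Ighm, the heavy chain of IgM, had 122, 2338 and 132 CPM and a ratio of -4.26. Cd3e, a chain of the T cell receptor complex, had 5.15, 116 and 6.69 CPM and a ratio of -4.49 (-4.68 to -4.30). The enriched and unsorted levels of these genes were close, and only the depleted fraction stood apart: the median of the depleted over the unsorted library was 3.75 for T cell and 3.80 for B cell genes, and that of the enriched over the unsorted -0.44 and -0.61. The 2 exceptions within the T cell list, Tcf7 at -2.39 and the T cell receptor zeta chain Cd247 at -2.43, were 4-fold lower but far from the other 12, of which Cd5 at -3.84 was the nearest. Cd6, a lymphocyte scavenger receptor, had the largest drop of any well-counted gene at -4.78 (51 and 1397 reads), followed by the T cell transcription factor Bcl11b at -4.57. Channels more familiar from muscle and nerve stood among the same 20, with the sodium channel Scn4a at -4.57 (1.13 and 27 CPM) and the calcium channel Cacna1i at -4.37.

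The promoters of Cd79a and Cd3e are shown as those of the B and T cell receptor chains on the depleted side, with the same marking and build. The windows are chr7:24897247-24897546, plus strand for Cd79a and chr9:45009562-45009861, minus strand for Cd3e.
Cd79a: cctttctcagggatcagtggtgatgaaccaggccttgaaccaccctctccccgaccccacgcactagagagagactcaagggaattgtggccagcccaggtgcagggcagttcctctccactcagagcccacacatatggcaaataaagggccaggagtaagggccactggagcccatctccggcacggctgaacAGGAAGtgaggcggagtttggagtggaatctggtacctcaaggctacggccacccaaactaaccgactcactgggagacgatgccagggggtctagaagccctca
Cd3e: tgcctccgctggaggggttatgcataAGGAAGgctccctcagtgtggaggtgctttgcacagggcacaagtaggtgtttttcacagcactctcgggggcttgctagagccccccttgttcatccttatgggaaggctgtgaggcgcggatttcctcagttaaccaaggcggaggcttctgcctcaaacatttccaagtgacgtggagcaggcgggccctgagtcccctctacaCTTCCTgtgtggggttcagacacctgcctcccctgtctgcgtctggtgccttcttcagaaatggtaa
The Cd79a window held 1 ETS core and the Cd3e window 2, and neither held the E-box.

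Antigen receptor segments and signalling genes gave the same direction. Of 230 counted immunoglobulin segments 220 were at least 4-fold lower, and of 143 counted T cell receptor segments 133 were, with none at least 4-fold higher in either family. Of these segments 71 and 94 were at the floor in the enriched library and passed the read minimum through the depleted library alone. Among the well-counted segments, 30 of 31 and 3 of 4 were at least 4-fold lower, beside 6.89% of all well-counted genes. Segments share near-identical sequence and single values are uncertain. All 18 genes of lymphocyte signalling were at least 4-fold lower, with a median of -3.73. Ptprc, the pan-leukocyte antigen CD45, had 202 CPM in the enriched, 2593 CPM in the depleted and 462 CPM in the unsorted library, a ratio of -3.68 (-3.71 to -3.65). Of 19 chemokine receptors 10, from Cxcr5 at -4.28 to Ccr2 at -2.25, were at least 4-fold lower. Of the atypical receptors, which bind chemokines without classical signalling, Ackr2 was at 2.82, Ackr4 at 3.08 and Ackr3 at 3.90. Ackr1 rested on 17 reads against 2, a ratio of 2.80 (0.999 to 6.23), an interval that includes ratios under 4-fold. MHC class II genes, which present antigen to helper T cells, were at least 4-fold lower in 9 of 10 cases with a median of -2.70. Cd74, the invariant chain, had 386, 3462 and 432 CPM (-3.17), and H2-Aa had 329, 2010 and 312 CPM (-2.61). The B cell chaperone genes H2-DMb2 at -4.35 and H2-Ob at -4.10 matched the B cell list, while H2-DMb1 was at -0.89.

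Myeloid lists were not uniform. Monocyte genes had a median of -2.59 with 8 of 10 at least 4-fold lower, among them Ly6c2 at -3.30, Cx3cr1 at -2.66 and Ccr2. The exception was Ace at 2.60, the angiotensin-converting enzyme that lung endothelium also makes. Alveolar macrophage genes had a median of -0.18, with Chil3 at 79.6 CPM in the enriched and 76.0 CPM in the depleted library against 313 CPM unsorted, and Siglecf at 0.10 (-0.23 to 0.44). Both fractions thus held less of this list than the unsorted library, by medians of -1.99 and -2.18. Itgax, which encodes CD11c, was at -1.63 and Pparg at -2.12. Dendritic cell genes split, with the migration receptor Ccr7 at -4.21, the growth factor receptor Flt3 at -2.34 and the cross-presenting cell receptor Xcr1 at -1.24, but Clec9a at 2.62, Zbtb46 at 2.95 and the actin bundler Fscn1 at 2.21. Zbtb46 is known from endothelium too. Neutrophil genes had a median of -0.31, with S100a8 at 0.46 and the growth factor receptor Csf3r at -1.48. None of the 8 counted was at least 4-fold lower, and the one at least 4-fold higher, Camp, rested on 10 reads against 0. Of mast cell and basophil genes only Gata2, a factor that endothelium also uses, was at least 4-fold higher, at 3.08. Cma1 alone was at least 4-fold lower, at -3.54, and was not well counted.

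**Figure D3:**
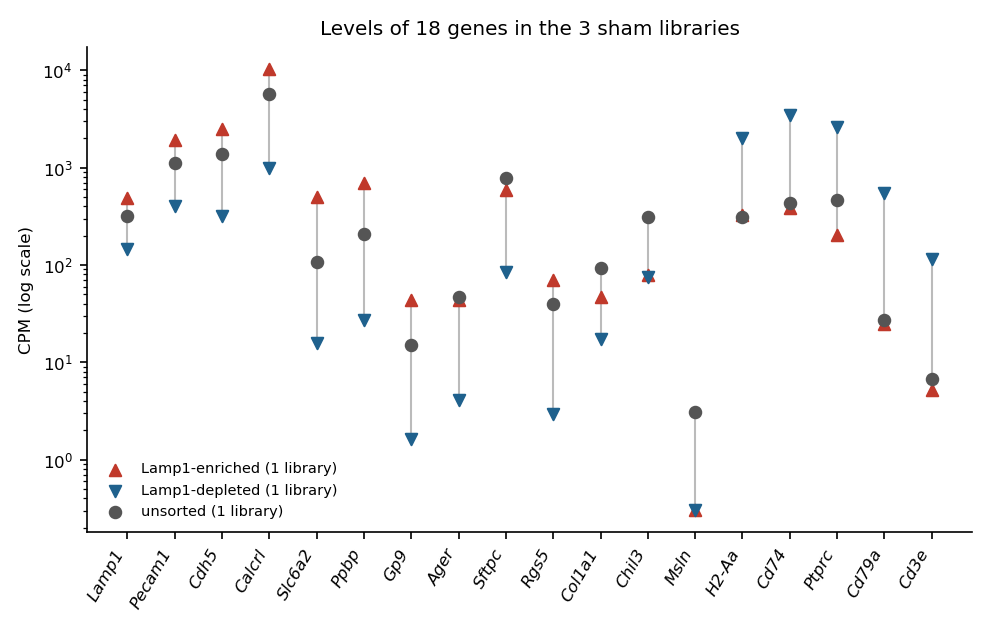
Level (y axis, CPM, log scale) of 18 genes in the sham Lamp1-enriched (red), Lamp1-depleted (blue) and unsorted (grey) libraries, 1 library each. For Cd3e, Cd79a, Cd74 and H2-Aa the grey point sits at the red one, for Pecam1 and Cdh5 between the fractions, and for Chil3 and Msln above both.

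Genes of vessel function followed the endothelial markers. The share of all genes counted that was at least 4-fold higher was 15.6%. In the list of vascular tone 13 of 16 were at least 4-fold higher with a median of 3.02, including the nitric oxide synthase Nos3 at 3.36, endothelin Edn1 at 3.47, cyclooxygenase Ptgs1 at 3.77 and the pulmonary hypertension gene Bmpr2 at 3.04 (6541 against 793 CPM). Caveola and lipid uptake genes had the highest median of the functional lists at 3.32, with Cav1 at 3.41 (3091 against 290 CPM), Cd36 at 3.32 and Gpihbp1, the capillary anchor of lipoprotein lipase, at 3.81. Pparg, which regulates lipid genes in macrophages, was the one member at least 4-fold lower. Haemostasis genes had a median of 2.55 with 9 of 17 at least 4-fold higher, among them Thbd, the thrombin receptor that starts the anticoagulant protein C pathway, at 2.99. Of growth factor systems, VEGF and angiopoietin genes had a median of 2.76 (11 of 15) and BMP and TGF-beta genes 2.68 (10 of 16), whereas Tgfbr1 and Tgfbr2 were at -0.38 and -0.52. Leukocyte adhesion molecules of endothelium had a median of 2.99, with 8 of 10 at least 4-fold higher.

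Several gene families held members on both sides. Among the Notch receptors, which pass signals between touching cells, Notch4 was at 2.72, Notch3 at 2.82 and Notch1 at 1.84, but Notch2 was at -2.40 (118 CPM in the enriched, 621 CPM in the depleted and 178 CPM in the unsorted library). In the axon guidance list 25 of 32 were at least 4-fold higher with a median of 2.69, led by the semaphorin Sema3c at 3.65, while Sema4d was at -3.44 and Sema4a at -2.69. Basement membrane genes had a median of 2.73 with 16 of 20 at least 4-fold higher, including Col4a1 at 2.91 and Lama5 at 2.90, and Lamb3 was the exception at -2.03. Laminins and integrins together had 19 of 35 at least 4-fold higher and 4 at least 4-fold lower, the latter a share near the 12.6% of all genes counted. Genes of elastic fibres and their crosslinking had a median of 2.10 (10 of 17), and 15 of 38 collagen chains were at least 4-fold higher with none at least 4-fold lower. The shares of all genes counted were 15.6% higher and 12.6% lower. Clustered protocadherins had a median of 2.63 with 40 of 46 at least 4-fold higher. Of these 46, 3 were at the floor in the depleted library and passed the read minimum through the enriched library alone. The 25 well-counted members had a median of 2.32 with 20 at least 4-fold higher, beside 11.6% of all well-counted genes. Members of a protocadherin cluster share their last exons, so that counts of single members are uncertain.

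**Figure D4:**
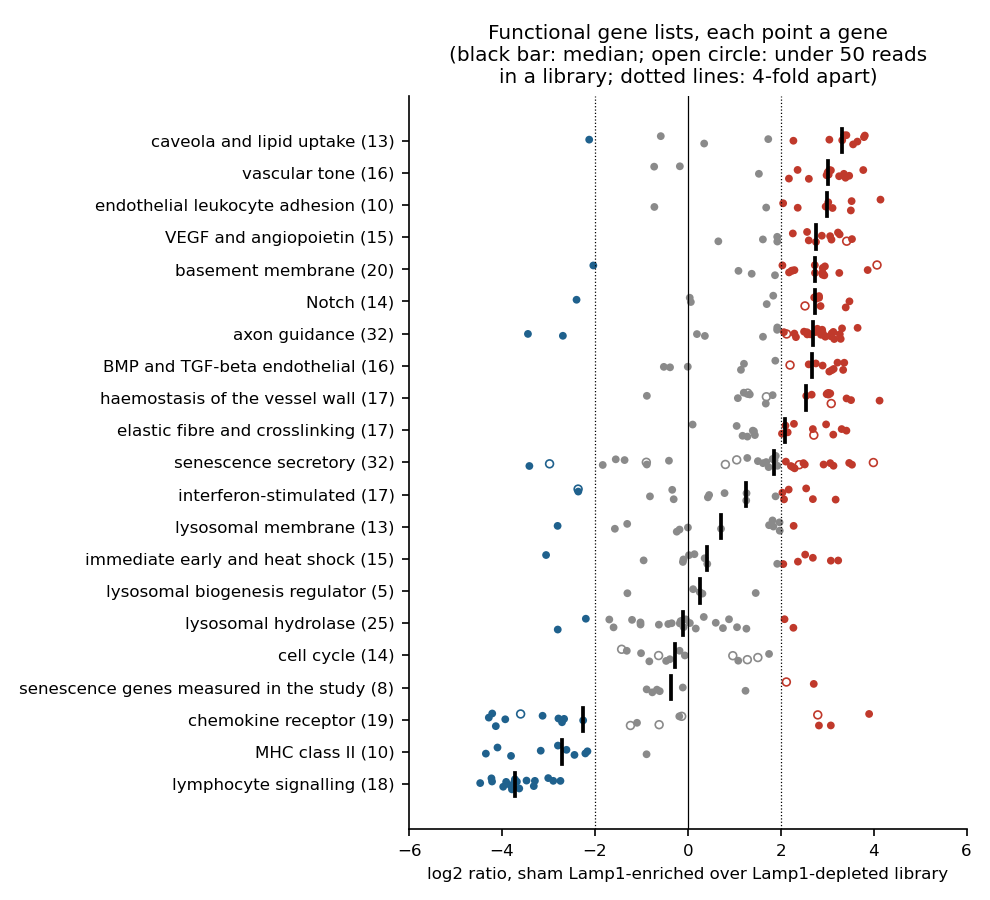
Log2 ratio of each counted gene (points; x axis, sham Lamp1-enriched over Lamp1-depleted library) for 21 functional lists ordered by their median (black bars; counted genes in brackets). Lists from caveola and lipid uptake down to haemostasis have medians from 3.32 to 2.55, lysosomal lists centre between -0.11 and 0.71, and all 18 lymphocyte signalling genes are at least 4-fold lower.

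Lysosomal genes did not move with Lamp1 as a group. Of 13 counted membrane genes only Laptm4b was at least 4-fold higher, at 2.28, and only Laptm5, a lysosomal protein of leukocytes, was at least 4-fold lower, at -2.80 (109 and 759 CPM). The median of the list was 0.71, and Lamp2, the closest relative of Lamp1, was at that median, with 286 CPM in the enriched, 174 CPM in the depleted and 266 CPM in the unsorted library. Scarb2 at 1.82, the tetraspanin Cd63 at 1.84 and Laptm4a at 1.98 were close to Lamp1, while the macrophage protein Cd68 was at -1.57 and the calcium channel Mcoln1 at 0.00 (-0.10 to 0.10). The 25 hydrolases had a median of -0.11, near the -0.01 of all genes. Ctsl at 2.27 and Ctsf at 2.08 were at least 4-fold higher and Ctss at -2.80 and Ctsh at -2.20 at least 4-fold lower, although all 4 are cathepsins. Ctss, which trims the invariant chain in antigen-presenting cells, had 43.8 CPM in the enriched, 305 CPM in the depleted and 99.7 CPM in the unsorted library. Regulators of lysosome formation were within 4-fold, with Mitf at 1.46 and Tfeb at -1.30.

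Genes linked to senescence also lay on both sides of zero. Cdkn2b, which encodes the cell cycle inhibitor p15, was at 2.71 (2.35 to 3.11) with 9.67 CPM in the enriched, 1.47 CPM in the depleted and 10.9 CPM in the unsorted library. Cdkn1a, which encodes p21, was at 1.24 (1.14 to 1.34) with 59.6, 25.2 and 66.3 CPM, and in both genes the unsorted library was above the enriched fraction. Cdkn2a, which encodes p16, rested on 28 reads against 6, a ratio of 2.12 (0.91 to 3.77), and at this depth its size is poorly fixed. Lmnb1, the nuclear lamin whose loss accompanies senescence, was at -0.77 (-0.90 to -0.63). Glb1, the gene behind senescence-associated beta-galactosidase, was at -0.11 (-0.27 to 0.05), an interval that includes no difference. Trp53, Mdm2 and Tgfb1 were at -0.67, -0.61 and -0.89, and the reference gene Hprt at -0.04. Of 32 secretory genes often listed for senescence, 13 were at least 4-fold higher and 2 at least 4-fold lower, with a median of 1.85, beside 15.6% and 12.6% of all genes counted. Those on the higher side included Edn1, Cxcl12 at 3.13, Plat at 3.06 and Vegfc at 3.53, which vessels also make, while the cytokines Il6 at -0.88, Tnf at -1.83, Il1b at -1.55 and Ccl5 at -3.41 were lower. How far the cell type make-up of the fractions carries these values was not tested.

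**Figure D5:**
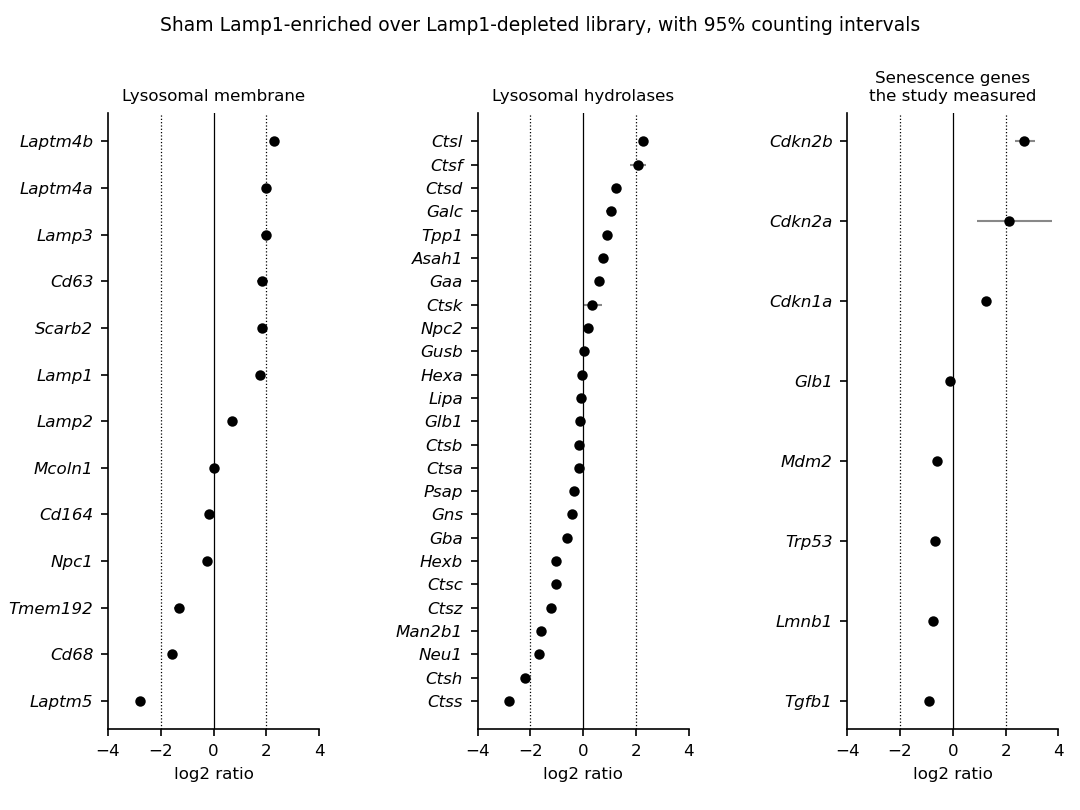
Log2 ratio (x axis, sham Lamp1-enriched over Lamp1-depleted library) of single genes with 95% counting intervals (bars, often narrower than the point) for lysosomal membrane genes, lysosomal hydrolases and 8 genes linked to senescence, with dotted lines 4-fold apart. Of these 8, the study's PCR covered Cdkn1a, Cdkn2a, Glb1, Lmnb1 and, for fibrosis, Tgfb1, and not Cdkn2b, Trp53 or Mdm2. Lamp1 at 1.75 stands among the higher membrane genes, hydrolases are spread on both sides of zero, and the interval of Cdkn2a reaches from 0.91 to 3.77.

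Other groups had medians closer to the middle. The 84 counted genes of cytosolic ribosomal proteins had a median of -1.01 with 1 at least 4-fold higher and none at least 4-fold lower, and their summed level was 12620 CPM in the enriched, 26559 CPM in the depleted and 10962 CPM in the unsorted library. Interferon-stimulated genes had a median of 1.26, with 6 of 17 at least 4-fold higher and 2 at least 4-fold lower. The shares of all genes counted were 15.6% and 12.6%. Ifi44 was at 3.18 and Ifit3 at 2.69 but Ifi27l2a at -2.36. Immediate early and heat shock genes, which respond to handling of cells, had a median of 0.42, but 6 of 15 were at least 4-fold higher and 1 at least 4-fold lower. Within them Jun was at 2.52, Hspb1 at 3.08 and Fos at 0.02 while Nr4a1, also induced by antigen receptors, was at -3.05. Cell cycle genes had a median of -0.28 with none of 14 at least 4-fold apart, and Mki67 was at -0.07. Mitochondrially encoded genes had a median of 0.06.

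Genes at the floor were mostly not protein-coding. Of the 816 with 3 reads or fewer in the depleted library, 44.1% were protein-coding, and of the 807 in the enriched library 21.6% were, with 20.9% immunoglobulin or T cell receptor segments. Of all genes counted, 68.4% were protein-coding and 1.73% were such segments. Hmga2, a chromatin protein, had 158 reads in the enriched and 2 in the depleted library, a log2 ratio of 5.97 (4.41 to 9.35). The neurotrophin gene Bdnf had 134 and 3 reads. Nkapl had 72 reads against 0 and was at least 23.8-fold higher, taking 3 reads as the limit in the depleted library. On the other side stood the heavy chain segment Ighv1-69 with 3 and 190 reads and the T cell receptor segment Trbv26 with 1 and 173. Well-counted genes at least 4-fold higher were 95.2% protein-coding, against 76.5% of those at least 4-fold lower and 86.4% of all well counted. The protein-coding ones spanned a median of 41.8 kb, 29.9 kb and 25.3 kb of genome, with median exonic lengths of 5194, 4502 and 4675 bases.

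The shares of ribosomal and mitochondrially encoded reads differed between the fractions. Gm26917 and Gm42418, transcripts that overlap ribosomal RNA sequence, held 0.884% and 0.0654% of reads in the enriched and 3.50% and 0.316% in the depleted library, and Gm42418 is itself among the genes at least 4-fold lower at -2.10. Mitochondrially encoded transcripts held 3.53% and 4.85%. In the unsorted library they held 5.43%, and Gm26917 held 1.54%. Whether these shares follow RNA handling or cell type was not tested. Leaving both ribosomal transcripts out of the scaling lowered every log2 ratio by 0.07, and scaling by total reads alone lowered them by 0.17. DESeq2 size factors raised them by 0.01. The sign of a positive ratio up to 0.17, or of a negative one within 0.01 of zero, therefore depends on the scaling. This touched 14 of 561 counted genes in the curated lists. Any part of these RNA differences in single ratios beyond the scaling was not tested.

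The same fractions of BLM-treated lung gave values that can be set beside these, with the limit that the BLM Lamp1-depleted library had 38.4% of its reads in Gm26917. Lamp1 was at 1.77 there and at 1.75 in sham. Of 1210 genes that were at least 4-fold higher in sham and well counted in both pairs, 973 (80.4%) were also at least 4-fold higher in BLM, and of 843 lower ones 586 (69.5%) were also lower, against 11% and 7.57% of all 11795 genes well counted in both. For T cell genes the sham median of -4.27 stood beside -4.22 for BLM, and for pan-endothelial genes 3.16 stood beside 3.70. Each median was taken over the genes of a list counted in that pair, so the members could differ. For immunoglobulin segments 230 entered in sham and 123 in BLM, and for airway genes 9 and 11. Lists with values further apart included mesothelial genes (-0.53 and 2.04), airway genes (2.04 and -0.38), immunoglobulin segments (-4.06 and -2.15), neutrophil genes (-0.31 and -2.10), MHC class II genes (-2.70 and -1.04), alveolar type 1 genes (3.35 and 1.75) and ribosomal protein genes (-1.01 and 0.00). Ctss was at -2.80 in sham and 0.08 in BLM, and Cd74 at -3.17 and -0.75. The middle of the ratios also differed. The median was -0.01 over all genes counted in sham, and 0.29 in BLM over those of them also counted there. With 1 library a condition, none of these differences between sham and BLM could be tested.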

How the data were processed

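Single-cell suspensions of lung were sorted on surface Lamp1 and poly(A) RNA was sequenced as paired-end reads, 1 library for each of 6 conditions. The authors trimmed reads with Trimmomatic 0.36, aligned them with STAR 2.5.2b to GRCm38 and counted reads per gene with featureCounts of Subread 1.5.2, per the study's methods and the submitters' processing notes. The deposited values are raw counts per gene. The annotation and any use of strand in counting are not given in the sources used here, so a gene and an overlapping antisense gene cannot be told apart. All 6 columns matched a sample by title and 0 were left out.

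Counts were scaled with TMM factors from all 6 libraries (edgeR 4.0.16, R 4.3.3). Ratios used a prior count of 0.5 reads. Intervals are exact binomial (Clopper-Pearson, 95%, scipy) on the reads of both libraries and, like the floor of 3 reads per library, cover counting error only. With 1 library per condition no p-value, no set test and no standard error was computed. The 4-fold threshold is only the size used to count genes and gives no error rate. Gene types and lengths came from GENCODE M21, which held 48970 of the 49315 identifiers, and promoters from RefSeq. On simulated counts for this pair, over 21867 genes, all 200 genes given an 8-fold ratio passed 4-fold and 95.5% of unchanged genes had an interval that included no difference. The simulated counts held counting error only. They check the calculation and say nothing about variation between animals or sorts.

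Named genes were Lamp1 and the genes the study names, the 20 well-counted genes with the largest ratio in each direction, the 10 floor genes with the most reads on each side, the 20 highest at least 4-fold apart in each fraction, and members of the gene lists. The comparison and the lists were chosen with earlier results of these data known. Promoters shown, the genes listed as on opposite sides in sham and BLM, and those named per length were chosen after their values were seen. Alternatives covered scaling (DESeq2 size factors, totals, 2 libraries), read minimums, fold, prior, thinning and gene type. No replicate could be left out.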

Additional observations from a re-analysis of the deposited data

Results flagged for a closer look

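The airway epithelial list lay on opposite sides in the sham and BLM pairs, on the log2 scale 2.04 for the sham median and -0.384 for that of BLM. The mesothelial list did so in the reverse direction, where -0.53 was the sham and 2.036 the BLM value. Neither difference was tested, as each pair is 1 library a side, and the mesothelial value rests on 3 well-counted genes in sham. The airway medians cover different members, 9 counted genes in sham and 11 in BLM.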

How the results depend on the processing

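With DESeq2 size factors, totals only, TMM from the 2 sham sorted libraries, a prior count of 2, thinning to the smaller total or the ribosomal transcripts left out, the counts of genes at least 4-fold apart stayed within 1.5 times of those reported, and no list with a median at least 4-fold from equal levels changed direction. The Lamp1 ratio was 1.574 with totals only and 1.673 without Gm26917 and Gm42418. With at least 1 read in either library 5230 genes were at least 4-fold higher and 4217 lower. At 2-fold the counts were 6024 higher and 5511 lower of all counted genes, and 2976 and 2472 of the well counted. At 8-fold they were 1357, 1500, 495 and 438. Requiring 200 reads in both gave 985 and 522. Among protein-coding genes alone 1205 were at least 4-fold lower, and 360 and 174 were at the floor in the depleted and the enriched library. With a floor of 0 reads these were 224 and 260. The median of the T cell receptor segments was -3.36 with a prior count of 2, since 94 of 143 were at the floor. The mesothelial median turned from -0.53 to 0.58 with at least 50 reads in either library. No paired analysis was possible because each condition has 1 library, and for the same reason none could be left out. Depth limits Cdkn2a and most mesothelial genes.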

Other observations

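A set of 79 genes was at least 4-fold below the unsorted sham library in both sorted fractions among the 15954 genes with at least 50 reads unsorted, a filter that favours genes high in that library. The highest by level were Gm10800, with 783 CPM in the enriched and 508 CPM in the depleted library against 5360 CPM unsorted, and related predicted genes such as Gm26870 and Gm21738. The same set held Olr1, a scavenger receptor for oxidised lipoprotein, with 8.87 and 11.5 CPM against 59.2 CPM, the chemokine Cxcl2 with 8.37 and 11.1 against 51.6 CPM, and the alveolar macrophage gene Plet1 with 4.11 and 5.77 against 26.7 CPM.

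Among the genes at least 4-fold apart in sham and well counted in both pairs, 5 of 1210 higher and 8 of 843 lower ones lay on the other side of zero in BLM. The BLM intervals of Gm43178 at 0.01, Cdc42bpg at -0.05, Grik5 at -0.14 and Snai1 at -0.14 included no difference. Tmem26 had the widest gap, from -2.14 in sham to 2.55 in BLM. Cmah, an enzyme of sialic acid synthesis, went from -3.05 (48 and 398 CPM) to 0.47 (374 and 271 CPM), and the club cell gene Scgb1a1 from 2.17 to -0.99. The histone genes Hist1h1b at -2.18 and Hist1h3h at -2.03 were at 0.37 and 0.69 in BLM. Tlr8, a receptor for single-stranded RNA, went from -2.23 to 0.62, and F2rl2, a thrombin receptor, from 2.04 to -0.68. None of these differences was tested, and the BLM signs were not checked under other scalings. Zero was not the middle of the BLM ratios, whose median over genes counted in both pairs was 0.29.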
